A study of Homo sapiens with 6 samples.

Results

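The major histocompatibility complex (MHC) on the short arm of chromosome 6, at 6p21, was examined in chromatin immunoprecipitation sequencing (ChIP-seq) data made with antibodies to YAP or TAZ in H1299, a long-established line of human non-small cell lung cancer. The locus was taken as hg19 chromosome 6 from 29600000 to 33400000. It was divided into class I (29600000 to 31500000), class III (31500000 to 32200000) and class II (32200000 to 33400000), named in the order in which they lie from the telomere. A peak belonged to the locus if its midpoint lay inside. Of all deposited peaks on chromosomes 1 to 22 and X, 650 of 392120 lay in the MHC in YAP replicate 1 and 651 of 353336 in YAP replicate 2. In TAZ replicate 1 it was 648 of 333505, and in TAZ replicate 2 it was 630 of 310657. The series held 2 libraries made with an anti-YAP antibody, 2 made with an anti-TAZ antibody and 2 input libraries without antibody. All came from H1299 cells that had been serum starved for 18 h, and no group had been given another agent or genetic change per the labels. The labels did not say that replicates came from separate cultures, so spreads and p-values measure only the difference between libraries, which may be technical. The depth of each library is unknown, because the lists give no read numbers. The peak names inside all 4 lists point to 1 common input, while the lists themselves are named after 2 other inputs, one for each replicate. It is therefore not settled against which input each fold was taken, and whether shared input reads add to the agreement between lists was not tested.

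YAP and TAZ are related coactivators at the end of the Hippo pathway. They have no DNA-binding domain of their own and reach chromatin through partners, above all the TEAD factors, often at enhancers. The MHC is one of the most gene-dense parts of the human genome. Its class I part holds genes whose products show peptides from inside the cell to T cells, among many genes of other function. Class III holds no antigen-presenting molecule: it carries TNF and its relatives LTA and LTB, the complement genes C2 and CFB, the heat shock gene HSPA1A and the histone methyltransferase gene EHMT2. Class II holds the HLA-DR, HLA-DQ and HLA-DP genes, which most epithelial cells keep silent unless stimulated, the peptide transporter genes TAP1 and TAP2, the immunoproteasome genes PSMB8 and PSMB9, and, at its centromeric end, widely expressed genes such as RING1 and DAXX. In the RefSeq table (GRCh38.p14), 49 protein-coding genes lie in order from HLA-F to MICB, 59 from MCCD1 to NOTCH4 and 36 from TSBP1 to KIFC1. These stretches stand for classes I, III and II. That table follows another build than the peak lists, so single peaks were not assigned to genes and the sequences under the peaks were not read.

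The TEAD factors prefer the letters GGAATG, which read CATTCC on the other strand, and RefSeq promoters show how often the genes of each class carry them. A promoter here is the 300 bases from 250 before to 50 after a gene's start, with 1 promoter taken for each gene. The letters, on either strand, were in 5 of 43 class I promoters (11.6%), 13 of 53 class III promoters (24.5%) and 5 of 33 class II promoters (15.2%), against 1857 of 15843 protein-coding genes in the table (11.7%) and 3836 of its 27305 promoters of any kind of gene (14.0%). These are descriptions of sequence and were not set against the peaks, because the builds differ. A promoter of each class is shown to give the setting of the match, as the 250 bases before the start, 5′ to 3′, in GRCh38.p14, with the matching letters in capitals. ABCF1 encodes an ATPase that acts in translation initiation, EHMT2 encodes the histone H3 lysine methyltransferase G9a, and HLA-DMA encodes a chain of the molecule that loads peptides onto class II molecules.
ABCF1 promoter, chr6:30571192-30571441, strand +: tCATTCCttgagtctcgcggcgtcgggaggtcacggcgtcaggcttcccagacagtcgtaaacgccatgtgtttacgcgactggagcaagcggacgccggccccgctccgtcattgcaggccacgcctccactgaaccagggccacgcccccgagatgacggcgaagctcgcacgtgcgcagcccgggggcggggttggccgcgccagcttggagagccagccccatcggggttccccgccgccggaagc
EHMT2 promoter, chr6:31897699-31897948, strand -: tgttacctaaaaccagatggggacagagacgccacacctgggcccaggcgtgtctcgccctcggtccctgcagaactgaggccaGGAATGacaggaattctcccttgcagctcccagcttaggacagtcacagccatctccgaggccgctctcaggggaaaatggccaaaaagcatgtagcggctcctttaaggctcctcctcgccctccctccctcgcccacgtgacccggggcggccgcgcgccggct
HLA-DMA promoter, chr6:32953098-32953347, strand -: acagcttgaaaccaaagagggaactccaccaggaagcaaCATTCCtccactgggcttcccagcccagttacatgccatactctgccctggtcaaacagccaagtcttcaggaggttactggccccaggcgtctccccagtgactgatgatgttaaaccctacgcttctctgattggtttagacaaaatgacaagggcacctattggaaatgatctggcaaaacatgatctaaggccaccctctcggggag
In ABCF1 the match started 249 bases before the gene's start, in EHMT2 166 and in HLA-DMA 211.

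Peaks of both antibodies covered more of the MHC than of the rest of chromosome 6. Cover, the percentage of bases under any deposited peak of a library, was 31.1% and 30.7% in the MHC in the YAP libraries, against 18.1% and 16.3% on the rest of the chromosome. In the TAZ libraries it was 30.4% and 34.0% in the MHC, against 14.0% and 14.0% on the rest. The rest of the chromosome was counted over the 100 kb bins that held at least 1 peak in any library, which leaves out stretches without any peak. The MHC was higher in all 4 libraries, by 1.71 to 2.43 times, with a mean of 2.03 times (log2 1.02 ± 0.22, SD, n = 4). By an exact two-sided sign-flip permutation test p was 0.13, which 4 libraries cannot undercut, and 0.13 after Benjamini-Hochberg adjustment over the 8 contrasts made within libraries. Against the rest of the genome the mean log2 ratio was 1.00 (exact two-sided sign-flip p = 0.13), but the neighbours of the locus differed from the rest of the chromosome too. The 3.8 Mb on the telomeric side of the MHC were covered to 25.2% and 22.6% with anti-YAP and to 20.5% and 19.6% with anti-TAZ. On the centromeric side, 43.0% and 40.6% was covered with anti-YAP and 40.04% and 45.5% with anti-TAZ. The MHC thus lay between its neighbours in every library, and against both flanks together its mean log2 ratio was -0.0267 (exact two-sided sign-flip p = 0.75). Among 712 windows of this length over the genome, the MHC ranked 97th and 86th by cover in the YAP libraries and 72nd and 66th in the TAZ libraries, and on chromosome 6 it was between 3rd and 4th of 42.

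The excess in cover came with wide peaks more than with many peaks. The MHC held 171 and 171 peaks per Mb in the YAP libraries, against 156 and 148 on the rest of chromosome 6. For TAZ it held 171 and 166 per Mb, against 134 and 126. The mean ratio was 1.21 and was above 1 in all 4 libraries (exact two-sided sign-flip p = 0.13), but against the flanks the log2 ratio was -0.13. The median peak in the MHC was 1052.5 and 1070 bp wide with anti-YAP and 1045.5 and 1160 bp with anti-TAZ. On the rest of chromosome 6 it was 533 and 518 bp with anti-YAP and 530 and 582 bp with anti-TAZ, so the width ratio was 1.97 to 2.07 in the 4 libraries (exact two-sided sign-flip p = 0.13). The centromeric flank had wider peaks still, with a median of 1296 and 1186 bp with anti-YAP and 1309 and 1398 bp with anti-TAZ. The telomeric flank lay below the MHC, at 793 and 857 bp with anti-YAP and 852.5 and 766.5 bp with anti-TAZ. The authors' fold over input hardly differed, with an MHC median of 3.37 and 3.23 with anti-YAP, against 3.22 and 3.15 on the rest of the chromosome. For TAZ the median was 3.20 and 3.14 in the MHC, against 3.18 and 3.08. The fold ratio was 1.01 to 1.05 (exact two-sided sign-flip p = 0.13).

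**Figure D1:**
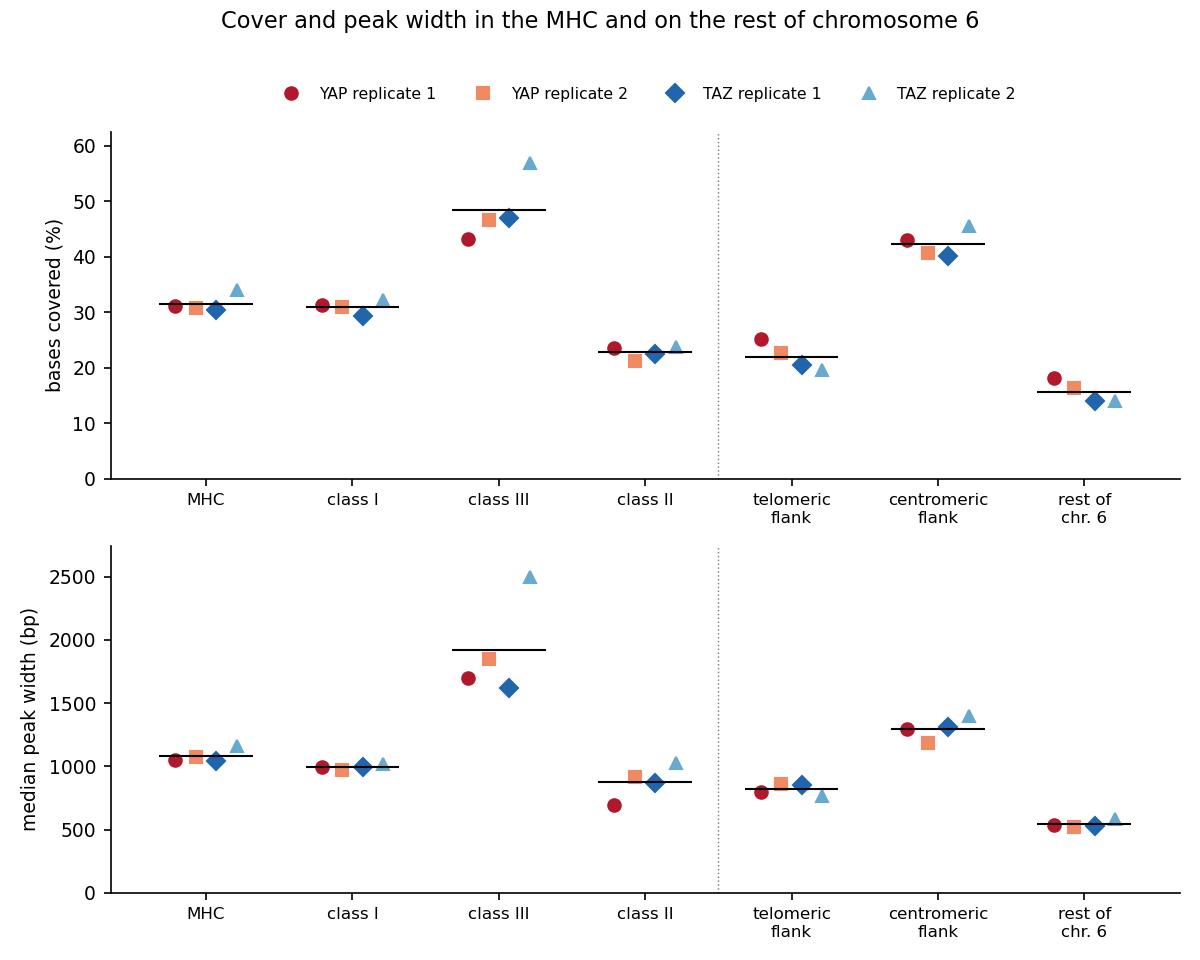
Cover (upper panel, % of bases under deposited peaks) and median peak width (lower panel, bp) for each library in the MHC and its classes, left of the dotted line, and in the 3.8 Mb flanks and the rest of chromosome 6, right of it; points are libraries and black lines their means (n = 4). Class III has the highest cover in all 4 libraries, 43.3% to 56.9%, and the widest peaks.

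Within the locus, class III, the stretch of the complement and TNF genes, was covered most and class II least, with both antibodies. Class III was covered to 43.3% and 46.5% with anti-YAP and to 46.9% and 56.9% with anti-TAZ. TAZ replicate 2 stood above the other 3 libraries there. Class I was covered to 31.3% and 30.8% with anti-YAP and 29.3% and 32.1% with anti-TAZ. Class II was covered to 23.5% and 21.3% with anti-YAP and 22.4% and 23.7% with anti-TAZ. Every library gave the same order, and none of the ranges over libraries overlapped. Class III exceeded class I by 17.5 ± 5.4 percentage points and class II by 25.7 ± 5.6, and class I exceeded class II by 8.18 ± 1.12 (SD, n = 4). Each of these 3 differences had an exact two-sided sign-flip p of 0.13, the smallest possible. With a fold minimum of 4 they shrank to 1.52, 2.76 and 1.24 points. In YAP replicate 2, class III minus class I was then -0.697 points and class III minus class II -0.0764, while the other 3 libraries kept the order (exact two-sided sign-flip p = 0.25 for both). Class I stayed above class II in all 4. The number of peaks per Mb did not follow this order. It was 173 and 180 in class III with anti-YAP and 180 and 161 with anti-TAZ, while class I had 178 and 183 with anti-YAP and 181 and 183 with anti-TAZ. Class II had 158 and 148 per Mb with anti-YAP and 149 and 141 with anti-TAZ. Median peak width in class III was 1699 and 1852 bp with anti-YAP and 1617 and 2494 bp with anti-TAZ. In class I it was 998 and 969 bp with anti-YAP and 996 and 1018 bp with anti-TAZ, and in class II 690 and 912.5 bp with anti-YAP and 868 and 1028 bp with anti-TAZ.

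Very wide peaks were likewise most frequent in class III. Peaks of at least 5 kb made up 48 of 650 MHC peaks in YAP replicate 1 (7.38%, against 3.78% of all its deposited peaks) and 42 of 651 in YAP replicate 2 (6.45%, against 3.45%). For TAZ they were 54 of 648 in replicate 1 (8.33%, against 3.03%) and 59 of 630 in replicate 2 (9.37%, against 3.95%). The centromeric flank had 10.65% and 8.71% with anti-YAP and 6.86% and 9.54% with anti-TAZ, above the MHC in every library but TAZ replicate 1. The telomeric flank had 3.70% and 2.75% with anti-YAP and 2.92% and 1.55% with anti-TAZ, below the MHC in every library. In class III the share was 10.7% and 13.5% with anti-YAP and 15.1% and 20.4% with anti-TAZ. The widest MHC peak of each library lay in class III. In YAP replicate 1 it spanned 23865 bp from 31558119 to 31581983 at 3.77-fold enrichment. In YAP replicate 2 it spanned 23876 bp from 31558094 to 31581969 at 3.44-fold enrichment. This peak was thus nearly the same in both YAP libraries. TAZ replicate 1 covered 90.02% of the same stretch with 3 peaks, of which the largest, from 31558086 to 31570991, was also its widest in the MHC at 12906 bp and a fold of 3.54. TAZ replicate 2 covered 81.4% of it with 4 peaks. The widest peak of TAZ replicate 2 lay elsewhere, from 31753221 to 31777344 (24124 bp, fold 3.56), and the other 3 libraries each had 4 peaks there that covered 80.8% to 83.4% of it. None of these 4 widest peaks ranked among the strong peaks defined below.

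The profile along the locus was nearly the same in all 4 libraries. Over the 38 bins of 100 kb, cover correlated between libraries with a Spearman's rho of 0.911 to 0.977 and a Pearson's r of 0.923 to 0.978, the range over all pairs; bins lie side by side and the lists may share input reads, so this is a description. In all 4 libraries 12 bins were covered to at least 40%: 6 of 19 in class I, 4 of 7 in class III and 2 of 12 in class II. Under 15% in all 4 were 8 bins, 2 in class I, 0 in class III and 6 in class II. Runs of neighbouring bins were also formed by the mean over the 4 libraries, so that single libraries may lie outside the limit. The longest run with a mean of at least 40% went from 30400001 to 30900000 in class I, at 48.8% and 49.6% with anti-YAP and 48.2% and 51.3% with anti-TAZ. A second ran from 31500001 to 31900000, the telomeric part of class III, at 52.1% and 55.6% with anti-YAP and 54.5% and 65.7% with anti-TAZ. The longest sparse block, of bins with a mean under 15%, ran in class II from 32300001 to 32800000, at 11.4% and 9.17% with anti-YAP and 8.74% and 6.63% with anti-TAZ. The centromeric end of class II was covered far more than the sparse block: from 33200001 to 33400000 cover was 53.5% and 50.4% with anti-YAP and 56.4% and 61.1% with anti-TAZ.

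**Figure D2:**
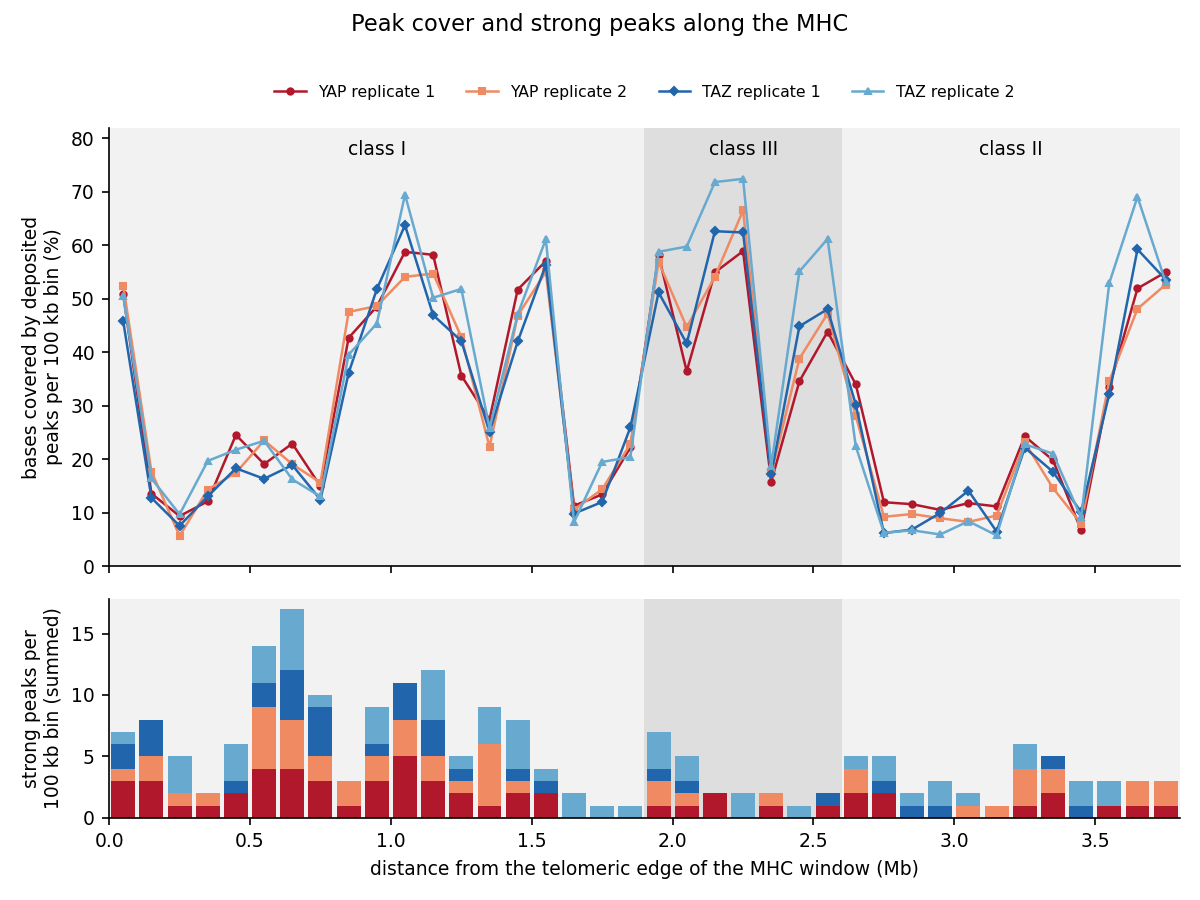
Upper panel: bases covered by deposited peaks (%) in each 100 kb bin against distance from the telomeric edge of the MHC window (Mb), 1 line per library; lower panel: strong peaks per bin, summed over libraries in the same colours. Shading marks the classes. The 4 cover profiles rise and fall together, while the 2 bins with most strong peaks, which start at 0.5 and 0.6 Mb, have a mean cover of 20.6% and 19.3%.

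The extreme bins of each class gave the range of cover inside it, and only in class III were they neighbours. In class I, the bin from 30600001 to 30700000 had the highest mean cover, 61.6% ± 6.6 over the 4 libraries, and that from 29800001 to 29900000 the lowest, 8.10% ± 1.87. In class III, the bin from 31800001 to 31900000 reached 65.1% ± 5.8, and the next one towards the centromere, from 31900001 to 32000000, had 17.3% ± 1.2. In class II, the bin from 33200001 to 33300000 had 57.1% ± 9.2 and that from 32700001 to 32800000 had 8.24% ± 2.54 (SD, n = 4 each). Each of these gaps was larger than the spread between libraries, but the bins were picked as the extremes of their class, so a gap is built in. The longest stretch without a deposited peak in any library was 25320 bp in class I, from 31333316 to 31358635. In class III it was 31665 bp, from 31947046 to 31978710, inside the bin of low cover. In class II it was 48335 bp, from 32453647 to 32501981, in the sparse block.

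Strong peaks were next used to ask where the locus stood among the best-ranked sites of each list. They were the 20000 peaks of a library with the highest −log10 q on chromosomes 1 to 22 and X, which makes the lists equally long. In the YAP libraries 56 of 650 MHC peaks were strong in replicate 1 (8.62%) and 49 of 651 in replicate 2 (7.53%), while 5.1% and 5.66% of all their deposited peaks were. In the TAZ libraries it was 34 of 648 in replicate 1 (5.25%) and 57 of 630 in replicate 2 (9.05%), with 6% and 6.44% of all deposited peaks. TAZ replicate 1 was thus below its genome-wide share and the other 3 libraries above theirs. On the rest of chromosome 6 the share was 11.8% and 10.9% with anti-YAP and 11.5% and 12.7% with anti-TAZ. In strong peaks per Mb, the MHC had 14.7 and 12.9 with anti-YAP, against 18.5 and 16.2 on the rest of the chromosome. For TAZ it had 8.95 and 15, against 15.4 and 16.0. The ratio was below 1 in all 4 libraries and averaged 0.767 (log2 -0.38 ± 0.29, SD, n = 4; exact two-sided sign-flip p = 0.13). This direction rests on the ranking and on the reference: with strong peaks ranked by fold the log2 ratio was 0.49, and against the rest of the genome it was 0.84. Against the flanks it was -0.0425 (exact two-sided sign-flip p = 1). With 5000 strong peaks per library it was -0.80, and with 50000 it was -0.15 (exact two-sided sign-flip p = 0.25).

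Most strong peaks of the locus, ranked by −log10 q, lay in class I, not in the heavily covered class III. Class I held 40 strong peaks of 339 in YAP replicate 1 and 32 of 347 in YAP replicate 2, and 26 of 343 and 36 of 348 in TAZ replicates 1 and 2. Class III held 6 of 121 and 4 of 126 with anti-YAP and 3 of 126 and 8 of 113 with anti-TAZ. Class II held 10 of 190 and 13 of 178 with anti-YAP and 5 of 179 and 13 of 169 with anti-TAZ. Per Mb, class I had 21.1 and 16.8 strong peaks with anti-YAP and 13.7 and 18.9 with anti-TAZ. Class III had 8.57 and 5.71 with anti-YAP and 4.29 and 11.4 with anti-TAZ, below class I in every library. Class II had 8.33 and 10.8 with anti-YAP and 4.17 and 10.8 with anti-TAZ, also below class I in every library; it overlapped with class III. Ranked by fold, class III stayed below class I in every library, but class II did not: YAP replicate 1 then had 19.2 per Mb in class II and 15.3 in class I, and class I held 29 of its 61 strong MHC peaks. As a share of deposited peaks, class I reached 11.80% and 9.22% with anti-YAP and 7.58% and 10.3% with anti-TAZ, all above the genome-wide shares. All were below the shares on the rest of chromosome 6, 11.85% and 10.9% with anti-YAP and 11.5% and 12.7% with anti-TAZ. Class III reached 4.96% and 3.17% with anti-YAP and 2.38% and 7.08% with anti-TAZ, and only TAZ replicate 2 was above its genome-wide share. The bins with most strong peaks were 30100001 to 30200000 and 30200001 to 30300000, with 14 and 17 over the 4 libraries at a mean cover of 20.6% and 19.3%. Next came 30600001 to 30700000 and 30700001 to 30800000, with 11 and 12 at a mean cover of 61.6% and 52.5%, so class I bins of low and of high cover both held many. Between the cover of a bin and its number of strong peaks, Spearman's rho over the 38 bins was 0.385 and 0.209 with anti-YAP and 0.0236 and -0.112 with anti-TAZ.

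Strong peaks of the MHC were narrower than the other peaks of the locus. Their median width was 633.5 and 536 bp with anti-YAP and 709.5 and 683 bp with anti-TAZ. The other MHC peaks had medians of 1082.5 and 1117.5 bp with anti-YAP and 1072 and 1273 bp with anti-TAZ. The rest of chromosome 6 had the same order. Strong peaks there had medians of 473 and 440 bp with anti-YAP, against 585 and 570 bp for the others. For TAZ it was 423 and 427 bp, against 579 and 642 bp. Over all MHC peaks, width and −log10 q had a weak positive Spearman's rho, 0.221 and 0.112 with anti-YAP and 0.192 and 0.104 with anti-TAZ. Fold and −log10 q ranked peaks almost alike, in the MHC and on the rest of chromosome 6. Spearman's rho over MHC peaks was 0.967 and 0.978 with anti-YAP and 0.976 and 0.982 with anti-TAZ. Over peaks of the rest of the chromosome it was 0.951 and 0.961 with anti-YAP and 0.965 and 0.965 with anti-TAZ. The choice of ranking still changed the number of strong peaks. The MHC as a whole held 56 and 49 by −log10 q with anti-YAP, and 61 and 61 by fold. With anti-TAZ it was 34 and 57 by −log10 q, and 38 and 59 by fold. Its class II rose from 10 and 13 to 23 and 20 with anti-YAP, and from 5 and 13 to 9 and 17 with anti-TAZ. Class I went from 40 and 32 to 29 and 35 with anti-YAP, and from 26 and 36 to 23 and 33 with anti-TAZ. The rest of chromosome 6 held 3041 and 2663 by −log10 q with anti-YAP, but 1730 and 1586 by fold. For TAZ it held 2525 and 2619 by −log10 q, but 1572 and 1733 by fold. The median fold of strong MHC peaks was 4.49 and 4.40 with anti-YAP and 4.61 and 4.23 with anti-TAZ. Folds of 4 or more were found in 111 of 650 and 72 of 651 MHC peaks with anti-YAP (17.1% and 11.1%), while 9.22% and 7.52% of all their deposited peaks reached it. For TAZ it was 63 of 648 and 55 of 630 (9.72% and 8.73%), while 9.68% and 5.6% of all did. In TAZ replicate 1 the share was thus at the genome-wide level. On the rest of chromosome 6 the share was 11.8% and 8.49% with anti-YAP and 11.2% and 7.23% with anti-TAZ. The MHC was below that in TAZ replicate 1 and above it in the other libraries.

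**Figure D3:**
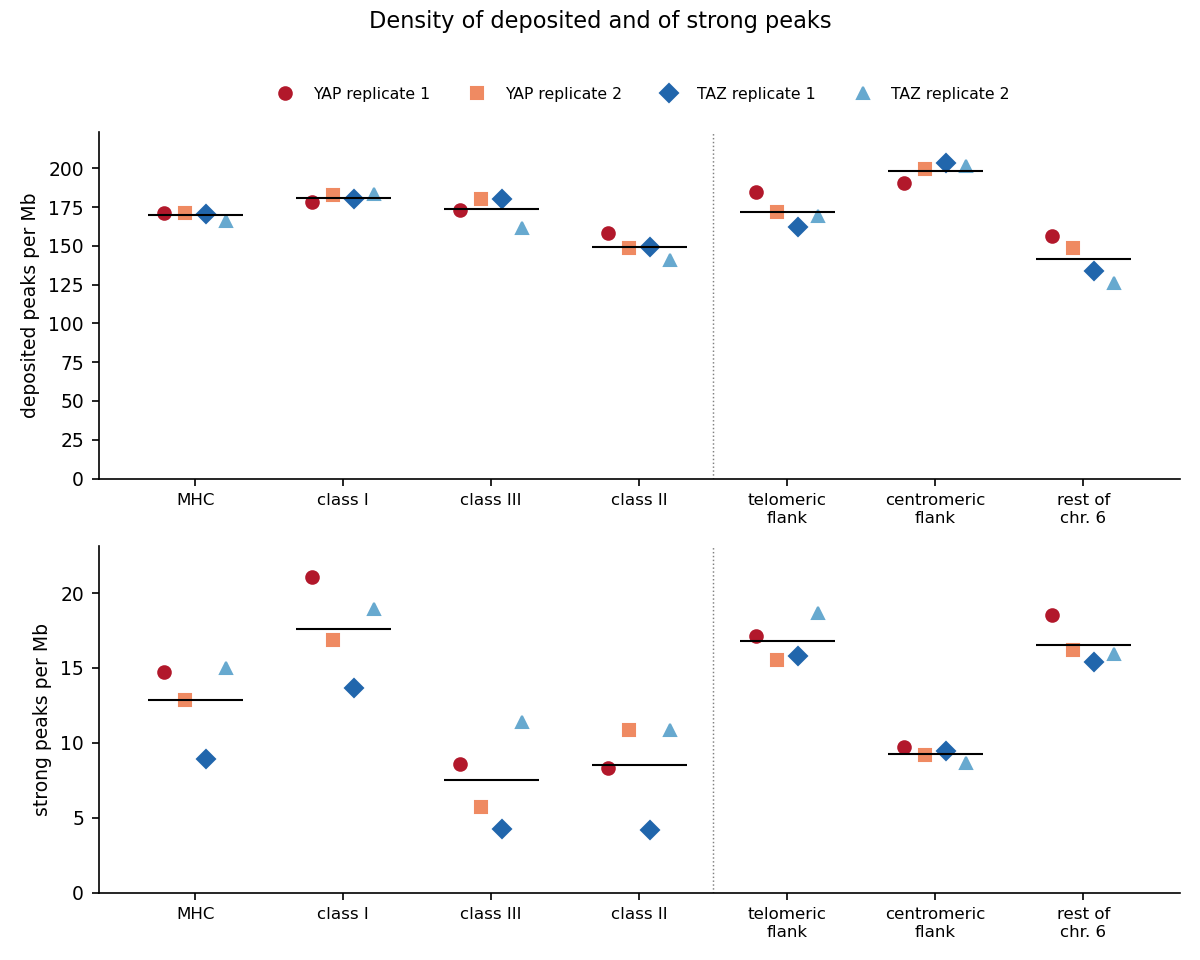
Deposited peaks per Mb (upper panel) and strong peaks per Mb (lower panel) in each library for the MHC and its classes, left of the dotted line, and for the flanks and the rest of chromosome 6, right of it; black lines are means (n = 4). Class I and class III have similar numbers of deposited peaks, but class III has fewer strong peaks than class I in each library.

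Merging the strong peaks of all libraries gave 149 regions in the MHC, of 61788 over the genome. A region was called reproducible for an antibody when it held a strong peak in each of the 2 libraries. That held for 14 MHC regions with YAP (9.40%; 6.9% of all regions) and 9 with TAZ (6.04%; 5.79% of all). No MHC region was strong in all 4 libraries, against 1.28% of all regions; a count of 0 of 149 allows a share of up to 2.01%, so a lack was not detectable at this number. That limit covers counting error only. With 1 library left out, a strong peak in the other of its antibody sufficed, and the YAP count was 49 without YAP replicate 1 and 56 without YAP replicate 2. The TAZ count was 57 without TAZ replicate 1 and 34 without TAZ replicate 2. Strong in 3 of the 4 libraries were 6 regions (4.03%), near the 4.25% of all regions over the genome. They were 5 of 101 in class I and 1 of 15 in class III. None of the 149 was selective, that is, reproducible for 1 antibody with no deposited peak of the other; genome-wide 0.113% were YAP-selective and 0.0178% TAZ-selective, and a count of 0 of 149 cannot be told apart from either. With no minimum strength, deposited peaks of all 4 libraries overlapped 119 of the 149 regions (79.9%), against 70.9% of regions over the genome. In class III it was 14 of 15, in class I 81 of 101 and in class II 24 of 33. An overlap of 1 bp is met more easily by wide regions where cover is high. Median region width was 713 bp in the MHC, against 460 bp over the genome, and 1989, 760 and 446 bp in classes III, I and II. How much of the differences in overlap follows from width and cover was not tested.

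Class II held the best-ranked region of the YAP libraries in the locus. It lay on chromosome 6 from 33238371 to 33238882, in the covered block at the centromeric end of class II. Its fold was 6.69 in YAP replicate 1 and 5.42 in YAP replicate 2, where its peak ranked 204th and 919th of the whole lists, the first MHC peak in each. The TAZ libraries had peaks there that were not strong, with a fold of 3.09 and 3.56. The best-ranked MHC peak of each TAZ library lay in class I, from 30200367 to 30200772 in replicate 1 (fold 5.37) and from 30212901 to 30213412 in replicate 2 (fold 5.75). The named class II regions that were reproducible for TAZ lay elsewhere in that class. The region from 32562599 to 32563340, in the sparse block, had a fold of 3.22 and 3.87 with anti-YAP and 4.66 and 6.08 with anti-TAZ. The value in TAZ replicate 2 was the highest of any of its MHC peaks. At 33013375 to 33013805 the values were 3.84 and 2.59 with anti-YAP and 5.12 and 4.74 with anti-TAZ.

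In class I, the region from 30319238 to 30320342 was strong in 3 libraries, with a fold of 4.68 and 3.23 with anti-YAP and 4.79 and 4.37 with anti-TAZ; YAP replicate 2 was the exception. The region from 30685691 to 30686907, in the longest covered block, had fold values of 4.41 and 4.43 with anti-YAP and 3.58 and 2.69 with anti-TAZ. The region from 29804533 to 29804960, in the least covered bin of the class, had 4.67 and 4.35 with anti-YAP and 3.13 and 2.80 with anti-TAZ. In class III, the region from 31922294 to 31924282 had 5.26 and 4.38 with anti-YAP and 2.89 and 3.91 with anti-TAZ. The region from 31504719 to 31506248 had 4.22 and 3.38 with anti-YAP and 4.48 and 4.20 with anti-TAZ. The third, from 31585247 to 31589077, was strong in both YAP libraries and in TAZ replicate 2, with a fold of 4.38 and 4.33 with anti-YAP and 3.61 and 4.13 with anti-TAZ. The 9 regions were named because they were strong in both libraries of an antibody, so a higher value with that antibody is built in and was not tested. All 9 had deposited peaks in all 4 libraries. When strong peaks were ranked by fold, all 9 stayed reproducible, and with 5000 per library 3 did. Extending the strong peaks to 50000 per library cannot test this, because the longer lists contain every strong peak used here and all 9 stay by construction.

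**Figure D4:**
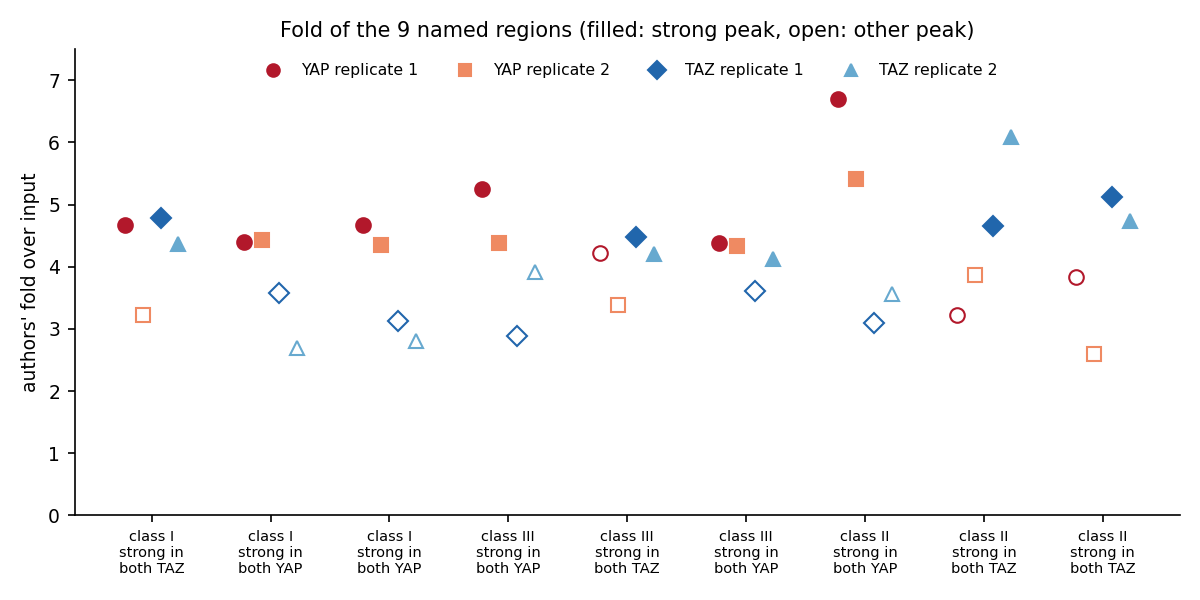
Authors' fold over input in each library at the 9 named regions, ordered by class; filled points are strong peaks and open points other deposited peaks. Regions strong in both libraries of one antibody have a deposited peak with a fold of 2.59 to 4.68 in each library of the other.

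The question of the series, how YAP and TAZ compare, was asked inside the locus. The YAP libraries held 650.5 ± 0.7 MHC peaks and the TAZ libraries 639 ± 12.7 (SD, n = 2 each), a difference of 11.5 (exact two-sided permutation p = 0.33, which 2 libraries against 2 cannot undercut). It was 2.5 without TAZ replicate 2 and 20.5 without TAZ replicate 1. The YAP lists are longer, and as a share of each list the order turned round, at 0.166% and 0.184% with anti-YAP and 0.194% and 0.203% with anti-TAZ (exact two-sided permutation p = 0.33). When every list was cut to as many peaks as the shortest one, the difference in number was -52. Strong peaks overlapped between antibodies, at 56 and 49 with anti-YAP and 34 and 57 with anti-TAZ, and the difference of 7 became -4.5 without TAZ replicate 1 and 18.5 without TAZ replicate 2 (exact two-sided permutation p = 1 with all libraries). Cover of the MHC was 30.9% ± 0.2 with anti-YAP and 32.2% ± 2.5 with anti-TAZ and also overlapped; the difference of -1.31 points was 0.494 without TAZ replicate 2 and -3.11 without TAZ replicate 1.

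By class, cover was set side by side in the same way. In class I it was 31.1% ± 0.3 with anti-YAP and 30.7% ± 1.9 with anti-TAZ, and in class II 22.4% ± 1.6 with anti-YAP and 23.04% ± 0.9 with anti-TAZ, with overlapping libraries in both. In class III it was 44.9% ± 2.3 with anti-YAP and 51.9% ± 7.1 with anti-TAZ (SD, n = 2 each); the antibodies did not overlap, but the difference of -6.98 points was -1.99 without TAZ replicate 2 and -11.97 without TAZ replicate 1. On the rest of chromosome 6 the order was the reverse, at 17.2% ± 1.3 with anti-YAP and 14.0% ± 0.03 with anti-TAZ. The log2 ratio of MHC cover to that of the rest of chromosome 6 was therefore lower with anti-YAP, 0.78 and 0.91, than with anti-TAZ, 1.12 and 1.28. That difference, -0.35, kept its sign with each library left out (-0.44 to -0.27) and with lists of equal length, but was 0.09 at a fold minimum of 4. The smallest exact two-sided permutation p among the 18 YAP against TAZ comparisons was 0.33, and 0.667 after Benjamini-Hochberg adjustment over them, so no difference could pass 0.05 in this design.

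Covered bases were shared slightly more within an antibody than between antibodies, but not beyond the spread of the pairs. The Jaccard index, the bases covered in both libraries divided by those covered in either, averaged 0.623 for the 2 pairs of libraries of the same antibody and 0.577 for the 4 pairs of different antibodies. On the rest of chromosome 6 it averaged 0.589 and 0.546. The difference in the MHC, 0.0463, was -0.0231 without YAP replicate 1 and -0.00899 without YAP replicate 2, where only the TAZ pair was left, with an index of 0.561. It was 0.134 without TAZ replicate 1 and 0.0829 without TAZ replicate 2, where only the YAP pair was left, with 0.685. By class, the same-antibody and different-antibody means were 0.660 and 0.612 in class III, 0.627 and 0.583 in class I and 0.572 and 0.521 in class II. Of the MHC bases covered in any library, 37.6% were covered in all 4, against 39.5% in the telomeric flank, 41.0% in the centromeric flank and 33.7% on the rest of chromosome 6; class III had 41.6%, class I 38.4% and class II 31.6%. Bases covered in both YAP libraries and neither TAZ library came to 79.5 kb in the MHC, or 4.41% of covered bases. Those covered in both TAZ libraries and neither YAP library came to 87.8 kb, or 4.87%. On the rest of chromosome 6 the YAP-only share was 7.78% and the TAZ-only share 1.83%. In class III the YAP-only share was 2.39% and the TAZ-only share 6.57%, whereas class I had 5.29% YAP-only and 3.69% TAZ-only. Of single peaks, 453 of 650 and 469 of 651 YAP peaks in the MHC overlapped peaks of all 3 other libraries (69.7% and 72.0%). On the rest of chromosome 6 it was 57.3% and 61.5%. For TAZ it was 468 of 648 and 460 of 630 in the MHC (72.2% and 73.0%), against 69.6% and 73.6% on the rest. MHC peaks with no partner in any other library numbered 29 and 14 with anti-YAP (4.46% and 2.15%) and 23 and 50 with anti-TAZ (3.55% and 7.94%). On the rest of chromosome 6 their share was 6.50% and 3.92% with anti-YAP and 2.99% and 4.70% with anti-TAZ. The MHC share was thus lower in the YAP libraries and higher in the TAZ libraries. Peaks were wider and cover higher in the MHC than on the rest of the chromosome, and both make overlaps more frequent. The classes had the same order in the Jaccard means and in the share covered in all 4 libraries as in cover. How much of these differences in agreement follows from width and cover was not tested.

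**Figure D5:**
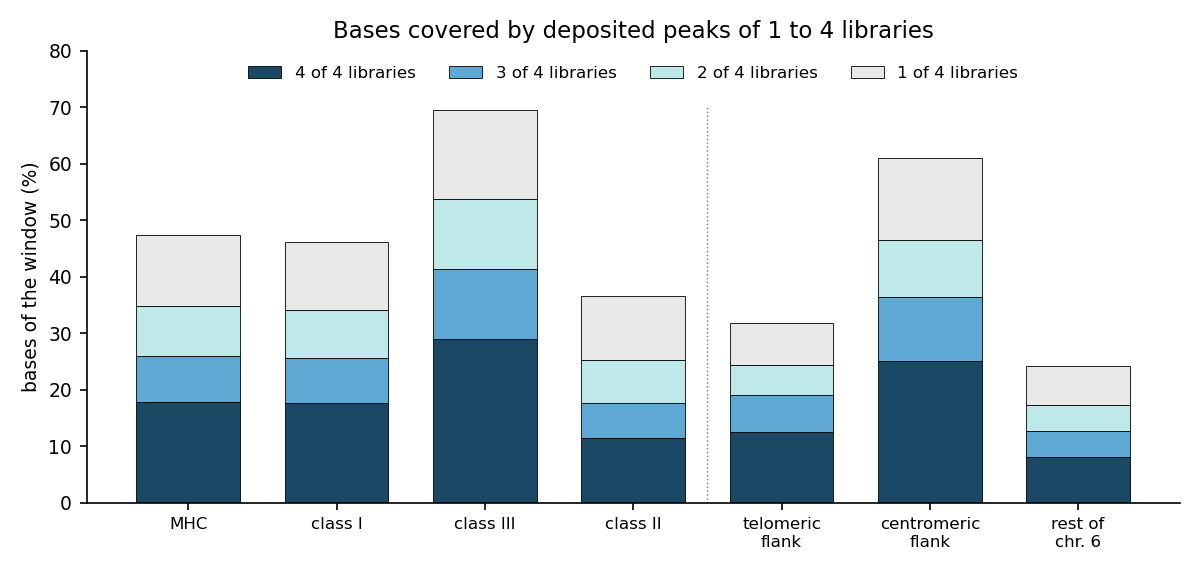
Bases of each window (%) covered by deposited peaks of 4, 3, 2 or 1 of the 4 libraries, for the MHC and its classes, left of the dotted line, and the flanks and rest of chromosome 6, right of it. All 4 libraries cover 28.9% of class III, 17.7% of class I, 11.5% of class II and 8.13% of the rest of chromosome 6.

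The window borders are fixed coordinates, and peaks on either side of them had similar ranges of fold. Just inside the telomeric border the first peak had a fold of 2.70 and 2.49 with anti-YAP and 3.00 and 4.01 with anti-TAZ, and the last one outside 3.15 and 2.85 with anti-YAP and 4.93 and 3.81 with anti-TAZ. At the centromeric border the last peak inside had 2.94 and 2.42 with anti-YAP and 3.10 and 3.42 with anti-TAZ, and the first outside 2.87 and 2.81 with anti-YAP and 3.39 and 2.95 with anti-TAZ.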

How the data were processed

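The submitters' processing notes name hg19 as the build and list MACS2, Bowtie2, SAMtools and cutadapt; their versions and parameters are not given in the sources used here. For each antibody library, the authors deposited a list of broad peaks. The deposited fold is the authors' ratio of ChIP to input signal over a peak, and the caller's significance was deposited as −log10 of p and of q. The deposited score restates the −log10 q and was not used. Fold and q served only for description, ranking and filtering inside a list.

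Starts were taken as 0-based and printed from 1. Cover was computed from merged peaks cut at window borders, with Python 3.11.15, numpy 2.4.6, pandas 2.3.3 and scipy 1.17.1. Windows were compared within libraries by exact sign-flip tests and antibodies by exact permutation tests over libraries. Overlap needed at least 1 bp. The functions were tested on simulated intervals, where 66 of 66 checks gave the planted answer. No peak lay on an alternate-haplotype contig. Named regions were the 3 of each class with the lowest rank sum among those strong in all 4 libraries or, where there were none, in both of an antibody; all selective regions; each library's widest peak; and each class's extreme bins and longest peak-free stretch. Members, windows and lists were chosen with earlier results of these data known.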

Additional observations from a re-analysis of the deposited data

How the results depend on the processing

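Of 134 alternatives to signed differences and ratios, 114 kept the sign. The 6 contrasts within libraries that were varied kept it when any library was left out. Against the flanks the log2 ratio was -0.13 for peaks per Mb and -0.0267 for cover. For strong peaks per Mb it was 0.84 against the rest of the genome and 0.49 ranked by fold. YAP minus TAZ in peak number was -52 with lists shortened to the shortest, and in list share 0.0333 percentage points at a fold minimum of 4; strong peaks ranged from -4.5 to 18.5 with a library left out. YAP minus TAZ in cover, in percentage points, changed sign for the MHC to 0.196 (q-value of at most 0.01) and 1.30 (fold minimum of 4), with -3.11 to 0.494 over left-out libraries. For class I it was -1.12 with shortened lists, with -1.02 to 1.73 over left-out libraries. For class III it was 1.26 with a fold minimum of 4. For class II it was 1.00 (q-value) and 0.732 (fold), with -1.77 to 0.507 over left-out libraries. At a fold minimum of 4 the YAP minus TAZ log2 ratio of MHC to rest was 0.0945 for cover and 0.22 for peaks per Mb. The same-minus-different Jaccard difference was 0.00155 at a fold minimum of 4 and -0.0231 to 0.134 over left-out libraries. Reproducible YAP regions numbered 1 with 5000 strong peaks, 55 with 50000 and 14 to 56 over left-out libraries; reproducible TAZ regions numbered 2, 38, 9 to 57, and 5 with reciprocal overlap of 50%. Shared regions numbered 9 with 50000 and 1 to 2 over left-out libraries. YAP-selective regions numbered 1 when ranked by fold, 1 with 50000, 1 with reciprocal overlap and 0 to 2 over left-out libraries; TAZ-selective regions 0 to 1. Leaving out a library drops the need for 2 replicates of its antibody, which raises these counts by construction; the cause of the other changes was not tested. The shortened lists, the ranking by fold within classes and the alternatives for cover by antibody were chosen after seeing the data.

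Same-numbered YAP and TAZ libraries share a number in the labels, and their lists are named after the same input. Whether these libraries were otherwise paired is not stated, and the permutation tests between antibodies took no account of the number. Their deviations from the antibody mean of cover per bin had a correlation of 0.493 between same-numbered libraries. With the replicate number as a block, each mean difference was by construction the same, 11.5 for peak number, -0.0235 for list share and 7 for strong peaks, and the smallest exact p from 2 pairs is 0.5. Read depth, which sets −log10 q and list length, is unknown.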
